A study of Mus musculus with 7 samples.

Results

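The interferon-gamma induced GTPases were followed in macrophages sorted from intracranial QPP7 gliomas of C57BL/6 mice. They were taken as 10 named genes, each matched by gene ID, out of 55385 gene IDs listed for every library, and all 10 were among the 15448 genes with enough reads to test. QPP7 is a glioma line. In 3 libraries (shChi3l1) the tumour cells bore a short hairpin targeting Chi3l1, and in 4 (shSC) they bore a control one. Every mouse therefore bore a tumour, and no group was without one. Since only the tumour cells were altered, the question put is how knockdown of the tumour's Chi3l1, a secreted chitinase-like glycoprotein, bears on neighbouring macrophages. The labels name neither the age of the mice nor the antibodies of the sort, and they do not say that each library came from its own mouse. The p-values therefore rest on library-to-library spread alone, and some of it may be technical.

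Interferon-gamma is secreted mainly by T cells and NK cells, and macrophages read it through a receptor that activates the kinases JAK1 and JAK2. Its target genes often carry a short palindrome called GAS, and IRF1 and related factors bind the interferon-stimulated response element, ISRE. Among the strongest targets in mouse macrophages are 2 families of large GTPases. Guanylate-binding proteins (Gbp2, Gbp3, Gbp5 and Gbp7 here) attach to the membranes of vacuoles that hold pathogens, help to open them and feed inflammasome activation. Immunity-related GTPases comprise regulators that sit on the cell's own membranes (Irgm1, Irgm2 and Igtp, also called Irgm3) and effectors that load onto the vacuole (Iigp1, or Irga6, Tgtp1, or Irgb6, and Ifi47, or Irgd). Type I interferons also induce many of these genes.

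Of the 10 genes 9 lie on chromosomes 3 and 11 in mm10, and their upstream sequence is rich in interferon response motifs. Gbp5, Gbp7, Gbp3 and Gbp2 lie in this order, with Gbp2b between the last 2, on the plus strand of chromosome 3, from 142493978 (start of Gbp5, ENSMUSG00000105504.4) to 142638008 (end of Gbp2, ENSMUSG00000028270.12). On chromosome 11 lie Irgm1 (48861968 to 48871683, minus strand), Tgtp1 (48985327 to 48994172, minus strand) and Ifi47 (49076587 to 49096974, plus strand). Further along that chromosome are Igtp (58199556 to 58207591) and Irgm2 (58199618 to 58222782), both on the plus strand. RefSeq (GRCm38.p6, the assembly of mm10) gave windows for 9 of the 10 genes, 1 each and 2 for Gbp3, and the 250 bases before each start were searched on both strands. The motif GAAANNGAAA (ISRE, TTTCNNTTTC on the other strand) occurred upstream of 8 of the 9 genes, against 2.98% of all 32851 such windows. The palindrome TTCNNNGAA (GAS) occurred upstream of 5, Gbp5, Gbp7, Tgtp1, Igtp and Irgm2, against 7.02% of all windows. All 5 also held an ISRE, a combination found in 0.332% of windows. A match is a description of the letters and not of a bound site.

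Below are 5 of these upstream stretches, 5′ to 3′ on the strand of the gene, with GAS and ISRE matches in capitals. The first 3 are shown because GAS and ISRE stand side by side in them, and the last 2 for the different layout of the guanylate-binding protein genes.
Igtp (chr11:58199306-58199555, plus strand): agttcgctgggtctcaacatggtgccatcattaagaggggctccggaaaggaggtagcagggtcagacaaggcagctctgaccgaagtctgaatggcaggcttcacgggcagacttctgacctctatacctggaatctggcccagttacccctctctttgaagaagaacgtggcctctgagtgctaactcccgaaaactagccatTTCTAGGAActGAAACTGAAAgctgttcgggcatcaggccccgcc
Irgm2 (chr11:58214727-58214976, plus strand): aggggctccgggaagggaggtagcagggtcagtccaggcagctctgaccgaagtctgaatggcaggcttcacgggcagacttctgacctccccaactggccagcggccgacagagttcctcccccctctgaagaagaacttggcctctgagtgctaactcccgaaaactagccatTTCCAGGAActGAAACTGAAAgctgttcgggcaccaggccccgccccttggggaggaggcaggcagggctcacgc
Tgtp1 (chr11:48992247-48992496, minus strand): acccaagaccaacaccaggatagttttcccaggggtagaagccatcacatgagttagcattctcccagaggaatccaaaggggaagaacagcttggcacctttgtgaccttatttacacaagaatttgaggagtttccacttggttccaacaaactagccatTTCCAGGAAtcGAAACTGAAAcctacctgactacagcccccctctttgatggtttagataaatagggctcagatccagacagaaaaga
Gbp7 (chr3:142530086-142530335, plus strand): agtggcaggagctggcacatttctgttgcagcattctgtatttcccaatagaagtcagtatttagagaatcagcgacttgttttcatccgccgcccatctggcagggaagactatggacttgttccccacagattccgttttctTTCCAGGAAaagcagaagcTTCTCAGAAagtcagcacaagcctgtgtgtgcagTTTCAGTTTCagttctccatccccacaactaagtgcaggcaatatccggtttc
Gbp2 (chr3:142620413-142620662, plus strand): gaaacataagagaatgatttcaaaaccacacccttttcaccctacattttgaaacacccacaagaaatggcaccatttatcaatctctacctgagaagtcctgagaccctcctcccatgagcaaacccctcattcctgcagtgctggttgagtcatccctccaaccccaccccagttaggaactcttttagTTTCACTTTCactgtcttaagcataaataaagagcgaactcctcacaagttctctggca
In Igtp, Irgm2 and Tgtp1 the GAS ended 2 bases before the ISRE, and the ISRE had the letters GAAACTGAAA in each. The pair began 45, 75 and 88 bases before the start of Igtp, Irgm2 and Tgtp1. Gbp7 had 2 GAS matches, at 106 and 87 bases, ahead of an ISRE on the other strand at 53 bases. Gbp2 had the ISRE alone, at 59 bases. Igtp and Irgm2 were also the most alike of the 45 pairs of windows, with the same base in 194 of 285 alignment columns (68.1%), where the next pair had 51.1% and the median pair 45.3%. Irgm1 had 2 overlapping ISRE matches and no GAS, as did the first start of Gbp3. Neither motif was found in the windows of Ifi47 and of the second start of Gbp3.

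**Figure D1:**
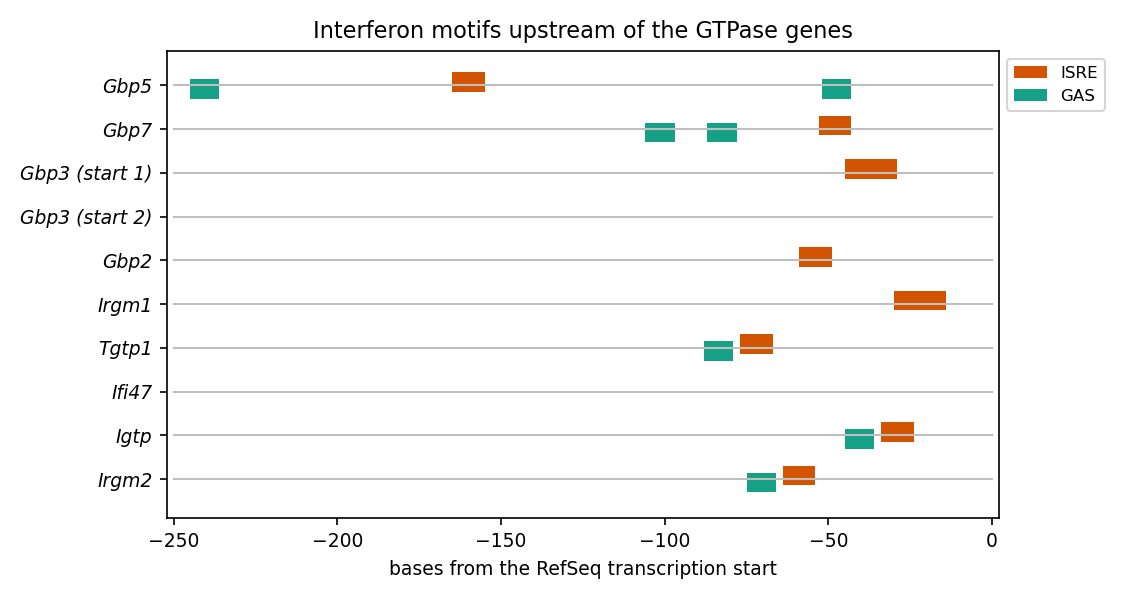
Matches to ISRE (orange) and GAS (green) in the 250 bases before each RefSeq start (x axis: bases from the start; 1 line per start, 2 for Gbp3; no window was in the table for Iigp1). GAS and ISRE lie side by side in Tgtp1, Igtp and Irgm2, and the lines of Ifi47 and the second start of Gbp3 hold no match.

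Reads assigned to genes ranged from 23174989 to 36502664 in shChi3l1 and from 19169129 to 32590781 in shSC libraries. Levels are given as CPM, reads scaled to the library total after TMM adjustment. The macrophage genes on the marker list were all detected, led by Lyz2 (lysozyme) at 10458 to 33969 CPM. Chi3l1, listed under its symbol Chil1, had 7 to 31 reads per library, and these are no check of a hairpin that acted in other cells. Markers of other cells were present too: the 21 T-cell and NK-cell genes, none at 0 in every library, summed to 321 to 1809.8 CPM in shChi3l1 and 291 to 1727 CPM in shSC libraries. The 9 tumour and glial genes summed to 10.8 to 84.6 CPM in shChi3l1 and to 39.2, 68.3, 44.9 and 312 CPM in shSC 1 to 4. The 7 microglia genes summed to 850.1, 1339.6 and 3040.3 CPM in shChi3l1 1 to 3 and to 658 to 1193 CPM in shSC libraries. In sorted bulk samples, fewer cells of a type and less RNA per cell cannot be told apart.

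The guanylate-binding protein genes varied widely between libraries of the same hairpin, and the hairpins overlapped for all 4. Gbp2, the most abundant of them, had 229.5, 950.0 and 612 CPM in shChi3l1 1 to 3 and 355, 721, 412 and 429 CPM in shSC 1 to 4. The lowest and the highest values both came from shChi3l1, and its means were 597 ± 360.5 CPM (SD, n = 3) against 479 ± 165 CPM (SD, n = 4). The log2 fold change was 0.32 (SE 0.50). Gbp3, from the same cluster on chromosome 3, had 94.0, 241 and 176 CPM in shChi3l1 and 160.3, 234, 168 and 170.1 CPM in shSC libraries. As for Gbp2, shChi3l1 1 was lowest and shChi3l1 2 highest, and the log2 fold change was -0.10 (SE 0.38).

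Gbp5, which promotes assembly of the NLRP3 inflammasome, and Gbp7, which takes part in the oxidative defence of macrophages, repeated this order in part. Gbp5 had 24.0, 64.8 and 32.6 CPM in shChi3l1 and 22.9, 39.2, 22.2 and 58.0 CPM in shSC libraries. Gbp7 had 22.1, 141 and 77.9 CPM in shChi3l1 and 20.2, 132, 27.1 and 108 CPM in shSC libraries. For Gbp7 the 4 libraries shChi3l1 2, shChi3l1 3, shSC 2 and shSC 4 thus lay at 77.9 CPM or above and the other 3 at 27.1 CPM or below, with both hairpins on each side. Its highest library stood 6.95-fold above its lowest, on values with 0.5 added to the reads. Log2 fold changes were 0.19 (SE 0.48) for Gbp5 and 0.16 (SE 0.77) for Gbp7.

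The 3 regulators of the immunity-related family were the steadiest members outside shSC 4. Irgm1, which governs autophagy and the survival of activated macrophages, had 411, 525 and 409.7 CPM in shChi3l1 and 408, 431, 381 and 212 CPM in shSC libraries. Apart from shSC 2, every control library was below every shChi3l1 library, and the log2 fold change was 0.32 (SE 0.36). Irgm2 had 38.0, 57.3 and 51.3 CPM in shChi3l1 and 38.7, 41.0, 33.6 and 23.0 CPM in shSC libraries. Of the 10 members it had the largest log2 fold change, 0.52 (SE 0.33), and the smallest unadjusted p, 0.143, from edgeR's quasi-likelihood test, with an adjusted p of 0.9998. Igtp had 245, 208 and 247 CPM in shChi3l1 and 276.5, 242, 238 and 118 CPM in shSC libraries, and its log2 fold change was 0.09 (SE 0.37). Reads of Igtp and Irgm2 may be mixed in part, since the other gene covers 8% of the exon bases of Igtp and 4.4% of those of Irgm2.

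The effector genes were lowest in shSC 4 and peaked in replicate 1 of one hairpin or the other. Iigp1, the best-studied effector and the gene on chromosome 18, had 244, 186 and 148 CPM in shChi3l1 and 285, 241, 194 and 115 CPM in shSC libraries, with a log2 fold change of -0.11 (SE 0.39). Tgtp1, first described as a T-cell GTPase, had 47.5, 20.1 and 28.4 CPM in shChi3l1 and 33.7, 31.6, 41.7 and 8.21 CPM in shSC libraries. Its log2 fold change was 0.15 (SE 0.54), and its reads are uncertain because it has a near-identical copy, Tgtp2, further along chromosome 11 (49057194 to 49064206). The likeness of the 2 sequences was not measured here. Tgtp2 had 77.7, 42.3 and 50.6 CPM in shChi3l1 and 75.1, 57.5, 62.7 and 20.6 CPM in shSC libraries, again lowest in shSC 4. Ifi47 had 1299.6, 334 and 268 CPM in shChi3l1 and 932, 295, 463 and 177 CPM in shSC libraries. It spanned the widest range of the 10, 7.35-fold with 0.5 added to the reads, and both libraries numbered 1 stood above all others. The log2 fold change of Ifi47 was 0.44 (SE 0.70), and other genes, among them Olfr56, cover 8.8% of its exon bases.

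**Figure D2:**
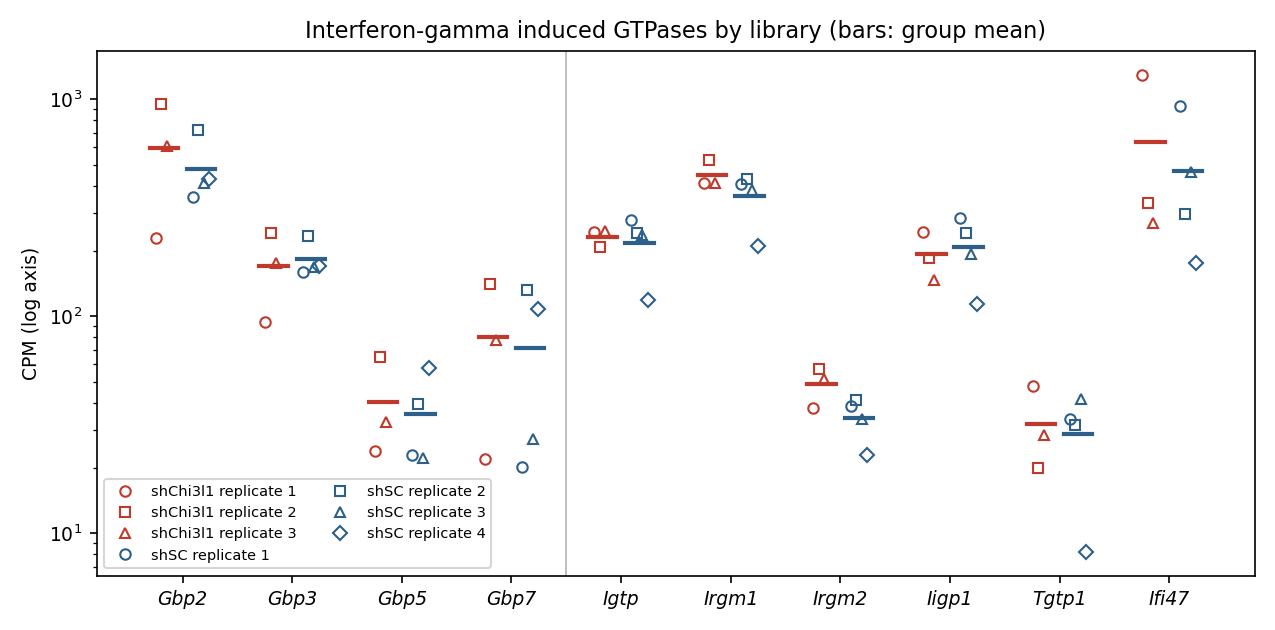
CPM of the 10 GTPase genes (log axis) in each library, shChi3l1 in red and shSC in blue, with a marker shape for each replicate number and a bar at the group mean (3 and 4 libraries). The hairpins overlap for all 10 genes, Gbp7 splits into a high and a low set with both colours in each, and shSC 4 is lowest for all 6 genes right of the line.

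None of the 10 genes passed an adjusted p of 0.05, and in none did the 2 hairpins separate. Every member had an edgeR adjusted p of 0.9998 over the 15448 genes, of which 0% were called. At an unadjusted p under 0.05 the count was 0 of 10, beside 0.906% of all genes on the higher side and 0.576% on the lower side in shChi3l1. Groups that did not overlap were seen in 0 members, against 1.24% of genes higher and 1.25% lower. Log2 fold changes were above 0 in 8 of 10 members and in 57.6% of all genes, with a median of 0.17 for the members and 0.07 for all genes. With plain library totals in place of TMM only 4 of 10 were above 0, with a median of -0.045, and the median of all genes moved by -0.20 to -0.13. Relative to all genes the members' median was thus 0.11 under TMM and 0.09 under plain totals. This difference was not stable. It was 0.02 with a replicate block, -0.01 without shChi3l1 2 and 0.29 without shChi3l1 1. With a replicate block, fitted without shSC 4, which has no shChi3l1 library of its number, 5 of 10 were above 0. Without shChi3l1 2 it was also 5 of 10, and without shChi3l1 3 or without shSC 2 it was 9 of 10. With standard errors of 0.33 to 0.77, these tests do not show that the genes were alike between hairpins.

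**Figure D3:**
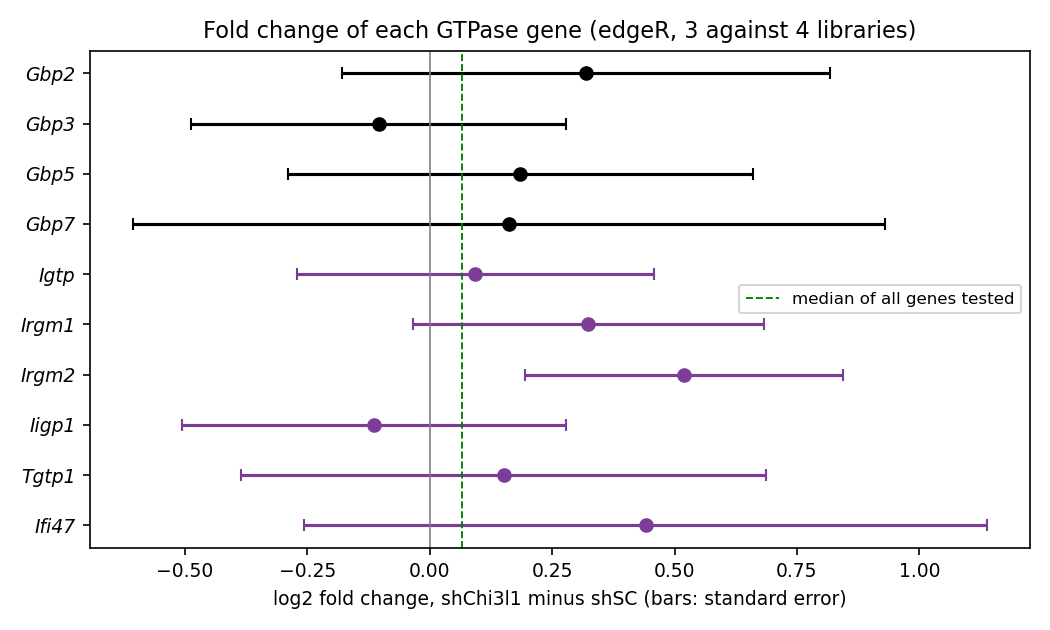
Log2 fold change of each GTPase gene, shChi3l1 minus shSC, with its standard error (edgeR, 3 against 4 libraries); guanylate-binding protein genes in black, immunity-related GTPase genes in purple, and the median of all genes tested as a dashed line. Only the bar of Irgm2, at 0.52 with a standard error of 0.33, stays above 0.

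The larger pattern was a shift between the guanylate-binding protein genes and the effectors Ifi47 and Tgtp1 that crossed the hairpins. The mean of gene-centred log2 CPM over the 4 guanylate-binding protein genes was -0.95, 0.92 and 0.19 in shChi3l1 1 to 3 and -0.65, 0.61, -0.49 and 0.37 in shSC 1 to 4. Over the 6 immunity-related GTPase genes it was 0.50, 0.02 and -0.05 in shChi3l1 and 0.40, 0.07, 0.11 and -1.04 in shSC libraries. The 3 libraries lowest in the first family (shChi3l1 1, shSC 1 and shSC 3) were thus the 3 highest in the second. The second family did not move as one, and its effectors, above all Ifi47 and Tgtp1, carried the high means. Without Ifi47 its mean was 0.28, 0.09 and 0.07 in shChi3l1 and 0.26, 0.19, 0.11 and -0.99 in shSC libraries. On this mean shSC 3 lay below shSC 2, as it did for the effector Iigp1 alone (0.0005 against 0.31). Irgm2 went with the guanylate-binding protein genes only outside shSC 4. Its gene-centred log2 CPM was -0.04, -0.01 and -0.21 in shChi3l1 1, shSC 1 and shSC 3. It was 0.56, 0.40 and 0.07 in shChi3l1 2, shChi3l1 3 and shSC 2. In shSC 4 Irgm2 was at its lowest, -0.76, like its own family, while the guanylate-binding protein mean was 0.37. Irgm1 was not raised in shChi3l1 1, shSC 1 and shSC 3 either, at 0.09, 0.08 and -0.01. The first family's mean minus the second's averaged -0.10 ± 1.22 (SD, n = 3) for shChi3l1 against 0.08 ± 1.12 (SD, n = 4) for shSC, so the groups differed by far less than their spread. Of the 10 genes, 6 were lowest in shSC 4 and 6 were highest in shChi3l1 2. All 6 immunity-related genes made up the first set, while the second held the 4 guanylate-binding protein genes with Irgm1 and Irgm2.

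**Figure D4:**
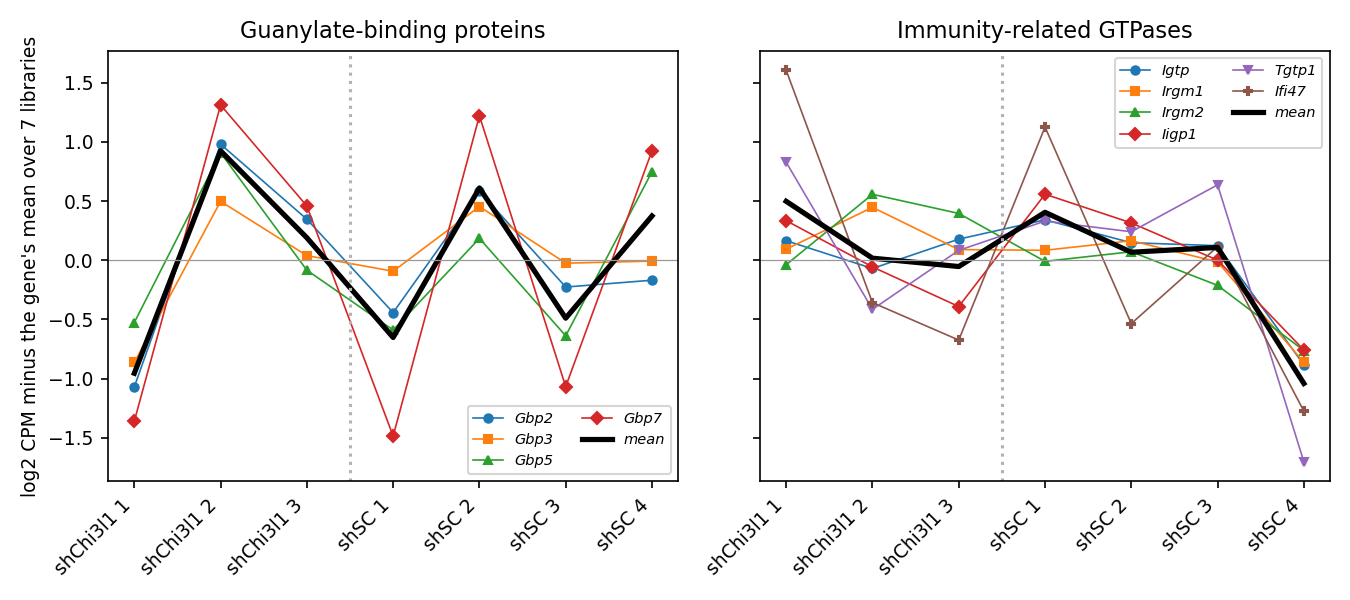
Log2 CPM minus each gene's mean over the 7 libraries (y axis), by library (x axis), for the 4 guanylate-binding protein genes (left) and the 6 immunity-related GTPase genes (right), with the family mean in black; the dotted line parts the hairpins. On the left shChi3l1 1, shSC 1 and shSC 3 are low, and on the right the same 3 have the highest means and shSC 4 the lowest, at -1.04.

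Some measures of the libraries moved with the level of the guanylate-binding protein genes. The share of reads in genes with more than 5000 exon bases was 12.6%, 20.7% and 18.6% in shChi3l1 1 to 3 and 14.8%, 19.9%, 16.8% and 19.8% in shSC 1 to 4. Its 3 lowest libraries were the 3 that were low in guanylate-binding protein transcripts. The mean of gene-centred log2 CPM over the 8 macrophage markers was -0.68, 0.89 and 0.45 in shChi3l1 and -0.46, 0.27, -0.58 and 0.11 in shSC libraries, and the same 3 were lowest. The markers did not move as one. Csf1r, Itgam and Mertk were lowest in these 3, but Aif1 was highest in shChi3l1 1, shSC 1 and shSC 3 (0.70, 0.51 and 0.13). The summed CPM of the markers, led by Lyz2, was higher in shChi3l1 1, at 34056, than in any shSC library, at 14998 to 27522. Ribosomal protein genes took 6.69%, 2.19% and 3.08% of reads in shChi3l1 and 6.32%, 2.66%, 3.65% and 4.95% in shSC libraries. This share was highest in shChi3l1 1 and shSC 1 but did not follow the families throughout, since shSC 4 was above shSC 3. The ratio between genes of like length also varied. Ifi47 and Gbp2 have 2473 and 2516 exon bases, and the ratio of their CPM was 5.66, 0.35 and 0.44 in shChi3l1 and 2.63, 0.41, 1.12 and 0.41 in shSC libraries, a 16.1-fold range. For each other guanylate-binding protein gene and the immunity-related gene nearest to it in exon length, the ratio ranged 10.5-fold (Tgtp1 over Gbp3), 10.2-fold (Irgm1 over Gbp7) and 6.29-fold (Iigp1 over Gbp5). In all 4 pairs the ratio was higher in shChi3l1 1, shSC 1 and shSC 3 than in each of the other 4 libraries. Those 3 libraries were named for their low guanylate-binding protein mean, and each ratio divides by such a gene. This order was therefore largely set beforehand. The low value of the immunity-related genes in shSC 4 came beside that library's 312 CPM of tumour and glial markers, the highest of the 7, and its 291 CPM of T-cell and NK-cell markers, the lowest. The part of these markers, and of the share of long genes, in the family values was not tested.

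Per exon length, the GTPase genes spanned a wide range of levels. The scale here is RPKM, CPM per kilobase of exon, and the exon bases of all isoforms count towards the length. Ifi47 (mean over the 7 libraries 218, range 71.4 to 526 RPKM) and Gbp2 (211, range 91.2 to 378 RPKM) led, and their order was not stable, with Ifi47 above Gbp2 in 3 of 7 libraries. Igtp followed at 111 RPKM and was above Irgm1, at 68.3 RPKM, in all 7. Gbp3 at 54.4 RPKM lay below Irgm1 in 6 of 7 libraries and above Iigp1, at 34.7 RPKM, in 6 of 7. Iigp1 was above Gbp7 in all 7. The last 4 were Gbp7 at 13.4, Irgm2 at 11.0, Tgtp1 at 9.41 and Gbp5 at 5.67 RPKM. These neighbours changed places between libraries: Gbp7 was above Irgm2 in 3 of 7, Irgm2 above Tgtp1 in 4 and Tgtp1 above Gbp5 in 5. By mean CPM, Ifi47 ranked 268th and Gbp2 274th among the 15448 tested genes, so both were among the top 1.77%.

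Ifng transcripts, a possible source of the inducing cytokine within the sort, were fewer on average in shChi3l1 but varied over a wide range. Ifng (ENSMUSG00000055170.4, chromosome 10, 118441046 to 118445892) had 237, 103 and 277 reads in shChi3l1 1 to 3 and 953, 808, 387 and 54 reads in shSC 1 to 4. In CPM these were 10.1, 3.06 and 11.3 against 33.8, 22.8, 13.2 and 2.32. The 3 highest values were all from shSC, but shSC 4 was the lowest of the 7. Its log2 fold change was -1.15 (SE 0.79), with an adjusted p of 0.9998 from edgeR, and another gene covers 25.9% of the exon bases of Ifng. Among libraries of the same number, Ifng was lower in shChi3l1 for 1 to 3. The shared numbers do not show a pairing, and shSC 4, the lowest, has no counterpart. With the replicate block the log2 fold change was -1.62 (edgeR unadjusted p = 0.0237, adjusted p = 1), and without shSC 4 it was -1.52 (edgeR unadjusted p = 0.0338, adjusted p = 0.99996). Of the fits that left out 1 library, the one without shSC 4 gave the largest drop. The smallest drops were -0.66 without shSC 1 (edgeR unadjusted p = 0.428) and -0.77 without shChi3l1 2 (edgeR unadjusted p = 0.397). The low values of Ifng in shSC 4 and shChi3l1 2 came with the 2 lowest sums of T-cell and NK-cell markers, 291 and 321 CPM against 968 to 1809.8 CPM in the other 5 libraries. As a mean of gene-centred log2 CPM over that list, these were also lowest (-1.55 and -1.10). However, shSC 1, with most Ifng, came next at -0.88. The list was not uniform there: Gzma (1.61), Ncr1 (0.95) and Klrb1c (0.83) were above their means over the 7 libraries. Most others were below, such as Cd3e (-2.03) and Eomes (-0.92). Some T-cell genes were lower in shSC 1 than in shSC 4, such as Cd8a (-4.63 against -1.52), and others were higher, such as Lck (-0.76 against -2.05). Gzma, the granzyme gene most abundant on that list, ran from 43.4 to 943 CPM.

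The members did not follow Ifng as a group. Over the 7 libraries, log2 CPM of Igtp rose with that of Ifng (Pearson r = 0.82, exact permutation p = 0.0034, adjusted over the 10 members 0.0337), while Spearman's rho was 0.71 (exact p = 0.0881, adjusted 0.441). Without shSC 4 and shChi3l1 2, the 2 libraries farthest from the median of Ifng, r was 0.71 over 5 libraries. Iigp1 had r = 0.77 (exact p = 0.0429, adjusted 0.113) and 0.66 without those 2. Tgtp1 had r = 0.75 (exact p = 0.0403, adjusted 0.113), and its r became -0.39 without them, so that relation rested on these libraries. Gbp5 went the other way, with r = -0.78 (exact p = 0.0452, adjusted 0.113), and was at 0.07 without them. For the other 6, r lay between -0.53 and 0.52, with adjusted p of 0.370 or more. By sign, r was below 0 for all 4 guanylate-binding protein genes and above 0 for all 6 immunity-related genes. Without shSC 4 and shChi3l1 2 this split was gone. All 4 guanylate-binding protein genes were then above 0, and Irgm2 (-0.14) and Tgtp1 (-0.39) below. With 3 and 4 libraries, no correlation is given within a hairpin. Gbp2, Gbp3 and Gbp5 were highest in shChi3l1 2, where Ifng had 3.06 CPM.

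**Figure D5:**
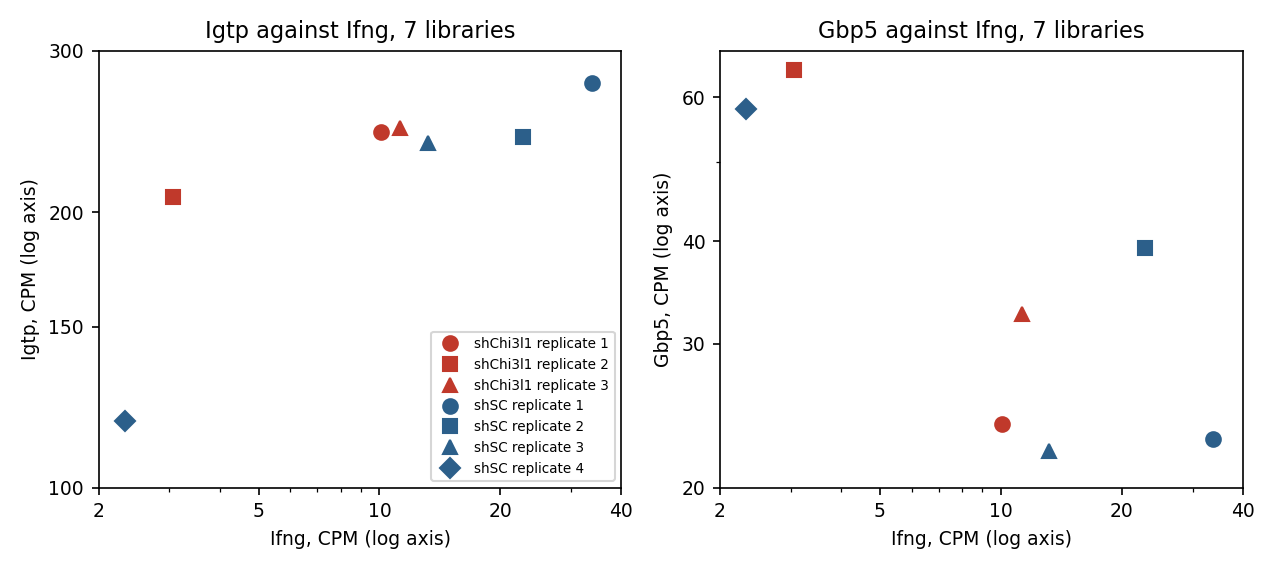
CPM of Igtp (left) and Gbp5 (right) against CPM of Ifng in the 7 libraries, all axes logarithmic, shChi3l1 in red and shSC in blue. Igtp is lowest and highest where Ifng is lowest (2.32 CPM) and highest (33.8 CPM), whereas Gbp5 is highest in the 2 libraries with least Ifng.

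The rest of the interferon-gamma pathway gave the same absence of calls. For this and the later lists, 57.6% of all genes were higher, with a median of 0.07. Under plain library totals the median of all genes was -0.13, a move of -0.20 that is not particular to any list. Of 7 genes for the ligand and the cytokines that induce it, 6 were higher and 1, Ifng, was lower, and the median log2 fold change was 0.46. It was -0.15 without shChi3l1 1, 0.12 without shChi3l1 2, 0.02 in limma's voom fit and 0.17 under plain library totals. Il15 and Il18, which stimulate NK cells, were at 0.65 (SE 0.50) and 0.55 (SE 0.46), and shChi3l1 1 was the highest of the 7 libraries for both. Il15 had 44.1, 15.2 and 13.1 CPM in shChi3l1 and 8.73 to 20.7 CPM in shSC libraries. Of 16 receptor and signalling genes, 14 were higher and 2 lower, with a median of 0.18. Ifngr1, the ligand-binding receptor chain, had 194, 265 and 298 CPM in shChi3l1 and 157, 289, 244 and 175 CPM in shSC libraries. Its log2 fold change was 0.22 (SE 0.35). Irf2, which can oppose IRF1, was at 0.37 (SE 0.44) and Jak2 at -0.43 (SE 0.51). With plain library totals the median of the signalling list was 0.02, and with the replicate block it was -0.02.

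Further interferon-induced GTPases were measured beside the 10. Of 16 such genes, 12 were higher and 4 lower, and their median log2 fold change of 0.24 became 0.04 under plain library totals. The median of all genes was 0.07 and -0.13 in these 2 settings. Gbp2b, also known as Gbp1, had the smallest unadjusted p on the list and was lower on average, with 39.6, 18.2 and 65.3 CPM in shChi3l1 and 198, 56.4, 60.1 and 68.8 CPM in shSC libraries. Its log2 fold change was -1.22 (SE 0.59, edgeR unadjusted p = 0.0684, adjusted p = 0.9998), and shSC 1 was well above the other controls. Gbp10 and Gbp9 were at 0.75 (SE 0.55) and 0.43 (SE 0.44), and another gene covers 46.3% of the exon bases of Gbp10. Gbp4, the most abundant on this list, reached 141 CPM in shSC 2.

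Other targets of interferon-gamma and those of type I interferon also passed in no case. Of 22 other interferon-gamma targets, 19 were higher and 3 lower, with a median of 0.16, which was -0.02 under plain library totals. The median of all genes fell likewise, from 0.07 to -0.13. Cxcl11, a chemokine locus with 41.7% of its exon bases covered by another gene, was at 1.17 (SE 0.53), Nos2, the inducible nitric oxide synthase gene, at 1.04 (SE 0.78), and Il18bp, which encodes a decoy for interleukin-18, at 0.55 (SE 0.39). Nos2 had 11.2, 102 and 26.2 CPM in shChi3l1 and 8.16, 27.5, 11.6 and 43.6 CPM in shSC libraries, again highest in shChi3l1 2. Of 24 type I interferon targets, 21 were higher and 3 lower, with a median of 0.37, and 0.09 with the replicate block. Of all genes 57.6% were higher, with medians of 0.07 and, with the block, 0.02. No list was tested as a set. Ddx58, Oas3 and Ifit2 had the smallest unadjusted p there, 0.159, 0.210 and 0.215 from edgeR.

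Type I and type III interferon transcripts were scarce, apart from Ifnb1 in shSC 4. Of 14 such genes 5 had enough reads to test, and Ifna6, Ifna12, Ifnab and Ifne had no read in any library. Ifnb1, encoding interferon-beta, had 127, 163 and 84 reads in shChi3l1 and 132, 39, 25 and 570 reads in shSC libraries. In CPM it was 5.41, 4.84 and 3.42 against 4.68, 1.10, 0.85 and 24.5, so the library with most Ifnb1 was the one with least of 6 GTPase transcripts. Ifna1 and Ifna2 had log2 fold changes of -1.33 (SE 1.44) and -1.04 (SE 1.29), and neither exceeded 1.06 CPM in any library.

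Partner genes of the GTPases also gave no call. Beside their counts and medians, 57.6% of all genes were higher, with a median of 0.07, or -0.13 under plain library totals. The conjugation system that directs them to vacuoles, 12 genes of the ATG and LC3 families with Sqstm1 and Becn1, had 9 members higher and 3 lower and a median log2 fold change of 0.17, which was -0.04 under plain library totals. Map1lc3a was at 0.46 (SE 0.32), Gabarapl2 at 0.34 (SE 0.45) and Atg12 at 0.28 (SE 0.30). The summed level of the conjugation list was 2306 to 2692 CPM in shChi3l1 and 2326 to 2527 CPM in shSC libraries. Of 11 genes for prenylation, which anchors some guanylate-binding proteins to membranes, and for inflammasomes, 8 were higher and 3 lower, with a median of 0.12 that was -0.09 under plain library totals, -0.01 with the replicate block, -0.13 without shChi3l1 1 and -0.02 without shSC 4. Their summed level was 645 to 1275 CPM in shChi3l1 and 549 to 1239 CPM in shSC libraries. Fnta, a farnesyltransferase subunit gene, was at -0.43 (SE 0.31), Icmt at 0.49 (SE 0.48) and Nlrp3 at 0.46 (SE 0.51). All these genes had an edgeR adjusted p of 0.9998.

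Genes whose pattern over the libraries was most like the mean of the 10 members were sought among the 8405 other genes whose log2 CPM averaged 2 or more. The measure was the root mean square difference of gene-centred log2 CPM over the 7 libraries, which had a median of 0.54 over these genes. The closest were Vasp, an actin regulator gene, at 0.07, Ccdc127 at 0.08, the ubiquitin ligase gene Btrc at 0.10, Smad2, a TGF-beta signal transducer gene, at 0.10 and the kinase gene Map2k1 at 0.11. Emc3, Ube2q1, Hpcal1, Ints5 and Psmf1 followed at 0.11 to 0.12. These 10 were picked from 8405 genes by this distance. That they lay closer to the mean than any member is thus no result about the members. Of the members, Irgm1 (0.18) and Irgm2 (0.20) were nearest and Ifi47 (0.97) and Gbp7 (1.10) farthest. None of the 10 picked genes is on the lists of interferon targets.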

How the data were processed

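Libraries were made from 10 ng of RNA of sorted macrophages with SMART-Seq cDNA synthesis and Nextera XT, which does not mark strand, per the labels' protocols. The deposited values are whole-number read counts per gene, 1 file per library. Trim Galore, HISAT2, featureCounts and mm10 are named in the submitters' processing notes, with versions and settings not given in the sources used here. Of 55385 gene IDs, 55144 matched a symbol of GENCODE release M21 with the version removed, and the other 241 took at most 0.00179% of reads.

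Groups and replicate numbers came from the sample titles. Genes that passed edgeR's filterByExpr at a minimum count of 10 entered a quasi-likelihood F test (edgeR 4.0.16, R 4.3.3, TMM factors) across all 7 libraries, with Benjamini-Hochberg adjustment over 15448 genes. The test was checked on simulated data. CPM used TMM-scaled totals, and 0.5 was added to reads before logarithms. Standard errors came from the F statistic. Relations with Ifng used all orderings of the 7 libraries, two-sided. The members, the gene lists and the rule for naming genes (the members and Ifng, the 3 of smallest unadjusted p per pathway list, the 10 most like the members' mean, and the most abundant marker of each list) were chosen with earlier results of these data known. The family means (with and without Ifi47), length-matched ratios, relations with Ifng and other genes named for their level were added after values were seen. Deviations from group means correlated at 0.306, 0.260 and 0.188 in the pairs that share a replicate number (1 to 3). Pairs with unlike numbers ran from -0.479 to 0.322 (shChi3l1 3 with shSC 2), so these values do not show a pairing. The labels give no shared day, litter or animal either, and the replicate block is given only as an alternative where it moves a count. Alternatives were other scalings, no low-count filter, the block, DESeq2 1.42.0, limma 3.58.1 voom with quality weights, and leaving out libraries. One member of the signalling list is not reported here. PCR copies are not independent molecules, so read counts overstate precision.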

Additional observations from a re-analysis of the deposited data

Results flagged for a closer look

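Among the 4 shSC libraries, a single library stood apart from the other 3 for 2 GTPase genes on the log2 CPM scale. For Gbp3 the gap between shSC 2 and the next library made up 0.843 of the group's range, above the limit of 0.829, with 234 CPM against 160.3 to 170.1 CPM. For Tgtp1 the gap below the other 3 was 0.831 of the range, with 8.21 CPM in shSC 4 against 31.6 to 41.7 CPM. In all, 19 genes and list means were checked in this way, and chance flags about 1 in 20.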

How the results depend on the processing

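Each value was recomputed under 15 alternatives. No member passed an adjusted p of 0.05 in any of them, and the smallest adjusted p was 0.7496. The count of genes called was 0 in the main test and 1 with DESeq2's Wald test, which was no member. Genes with an unadjusted p under 0.05 numbered 229, against 350 with DESeq2, 713 with voom, 927 without the low-count filter, 435 with the replicate block, 145 without shChi3l1 3 and shSC 4 together, 908 without shChi3l1 1 and 143 without shSC 4. The only member to reach it was Irgm2 in limma's voom fit (unadjusted p = 0.0427, limma adjusted p = 0.938). Members above 0 numbered 4 with plain library totals, 5 with the replicate block and 5 to 9 when 1 library was left out. Their median was -0.045 with plain library totals, 0.04 with the replicate block and 0.03 to 0.26 when 1 library was left out. Irgm1 and Irgm2 kept a fold change above 0 in all 15, from 0.13 to 0.42 and from 0.33 to 0.63, and Ifng one below 0, from -1.83 to -0.66. Without shChi3l1 2, Gbp7 turned to -0.53, Gbp5 to -0.34 and Gbp2 to -0.19, and without shChi3l1 1 Ifi47 turned to -0.69. Tgtp1 kept its sign in 9 of the 15. The replicate block changed no call at an adjusted p of 0.05. The members had 191 reads or more in every library, but amplified reads do not bound the counting error.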

Other observations

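Genes nearest to each family's mean were listed with the same measure as for all 10 members, after the values had been seen. The 8 genes closest to the mean of the guanylate-binding protein genes were Canx, Ddi2, Emilin1, Wdr48, Cep120, Pigb, Sel1l and Cdc14a, at root mean square differences of 0.08 to 0.13. Canx encodes the chaperone calnexin and Sel1l a part of the machinery for degradation of proteins of the endoplasmic reticulum. The exon bases of these 8 had a median of 8741 and a range of 4693 to 12456, against a median of 4321 over all 8405 candidates. The 8 closest to the mean of the immunity-related GTPase genes were Bst2, Mtfr1, Dusp28, Vhl, Snx11, Chchd10, Csrp1 and Rgs14, at 0.09 to 0.14. Bst2, which encodes the interferon-induced virus tether tetherin, was the closest. Their exon bases had a median of 2477 and a range of 903 to 4372. The part of transcript length in either pattern was not tested.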
